A study of Mus musculus with 9 samples.

Results

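The subject is what the RIPK1 inhibitor Nec-1 did to gene expression in intestinal organoids that had received only the solvent EtOH, without 4-OHT. The members are the 2 libraries labelled EtOH Nec-1 and the 2 labelled EtOH DMSO, which are 4 of the 7 RNA-seq libraries and 4 of the 9 samples of the series. They were chosen by these labels alone. A gene was compared if 2 or more of these 4 libraries had it at 1 FPKM or more, which holds for 11909 of 54838 listed genes, and values were taken as log2(FPKM + 1). FPKM, fragments per kilobase of transcript scaled to depth, is the unit the authors deposited.

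Every organoid came from the intestine of C57BL/6 mice aged 2 to 4 months that carry both *Vil-CreERT2* and floxed *Mettl3* (*Vil-CreERT2*;*Mettl3* fl/fl), so the EtOH organoids carry the Cre driver and the floxed alleles too. The villin promoter directs this Cre to the epithelium, and 4-OHT is what activates it. EtOH DMSO organoids had EtOH for 2 days and DMSO for 5 days, and EtOH Nec-1 organoids had Nec-1 in place of DMSO. A legend of the study gives 5 µM Nec-1 and its methods 10 µM, and the methods name Nec-1 only for organoids given 4-OHT, so its dose and time in EtOH organoids are taken to be the same. Organoids labelled 4-OHT had 500 nM 4-OHT for 2 days with DMSO (2 libraries) or Nec-1 (1 library). They are used here for the spread between libraries, for the level of *Mettl3* and for a comparison near the end.

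As background, Nec-1 (necrostatin-1) is a small molecule built on an indole that blocks the kinase activity of RIPK1, the kinase that passes signals of the TNF receptor on to survival, apoptosis or necroptosis. It is also known to inhibit the tryptophan-degrading enzyme IDO. The gut epithelium meets foreign compounds directly, and there the receptors AhR, PXR and CAR respond to such compounds by raising genes of cytochrome P450 (Cyp) enzymes, which oxidize them, and of transferases and transporters, which couple them to glutathione, glucuronic acid or sulfate and export them.

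FPKM summed to 476574 and 450207 in EtOH DMSO libraries 1 and 2 and to 498712 and 489619 in EtOH Nec-1 libraries 1 and 2. Genes with at least 1 FPKM numbered 11750, 11952, 11559 and 11616 in the same order. Fragment counts are not given, so the depth behind a single value is unknown. Across the genes compared, which are not independent replicates, log2(FPKM + 1) correlated with Pearson's r of 0.984 between the DMSO libraries, 0.989 between the Nec-1 libraries and 0.980 to 0.981 between a DMSO and a Nec-1 library. Between the DMSO libraries 183 genes lay at least 1 log2 unit apart, between the Nec-1 libraries 137, and across the groups 210 to 231. Most genes thus differed little more between the treatments than between replicates.

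*Mettl3* was at 2.70 and 2.71 FPKM in the EtOH DMSO libraries and at 2.41 and 2.47 FPKM in the EtOH Nec-1 libraries. With 4-OHT by label, 2 DMSO libraries had 3.72 and 4.14 FPKM and the Nec-1 library had 3.36 FPKM, so it was not lower there. The values cover the whole gene and do not separate its excised part, so they do not check the deletion, and every statement on 4-OHT organoids rests on the labels. *Ripk1*, the target of Nec-1, was at 3.37 and 3.66 FPKM with DMSO and at 3.47 and 4.03 FPKM with Nec-1. The groups of *Ripk1* overlap (limma log2 fold change 0.07, SE 0.10, adjusted p = 0.790). Without EtOH Nec-1 library 2 its log2 fold change was -0.01.

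With limma and Benjamini-Hochberg adjustment over all genes compared, 28 of 11909 genes (0.235%) had an adjusted p under 0.05, 22 higher with Nec-1 (0.185%) and 6 lower (0.0504%). The rises include genes of drug metabolism, *Cyp1a1*, *Cyp3a25*, *Cyp2c55*, *Cyp3a11* and *Ces2a* among them, and 3 glutathione S-transferases. The falls include the apolipoprotein genes *Apoa4* and *Apoc3*. Each of the 28 genes moved the same way in 4 of 4 pairings of a Nec-1 with a DMSO library. At an unadjusted p under 0.05 there were 1661 genes, 368 higher and 1293 lower. The lower side was fuller, and over all genes the median log2 fold change was -0.09. Centring each library on its median moved that median by 0.10, to 0.01. The p-values measure the spread between replicate libraries only, since the labels do not say whether replicates were separate cultures. That spread is pooled over the groups with 2 libraries, so it includes the 4-OHT DMSO group, which lies outside the EtOH comparison. Between the 4-OHT DMSO libraries Pearson's r was 0.967 and 487 genes lay at least 1 log2 unit apart, more than within either EtOH group.

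**Figure D1:**
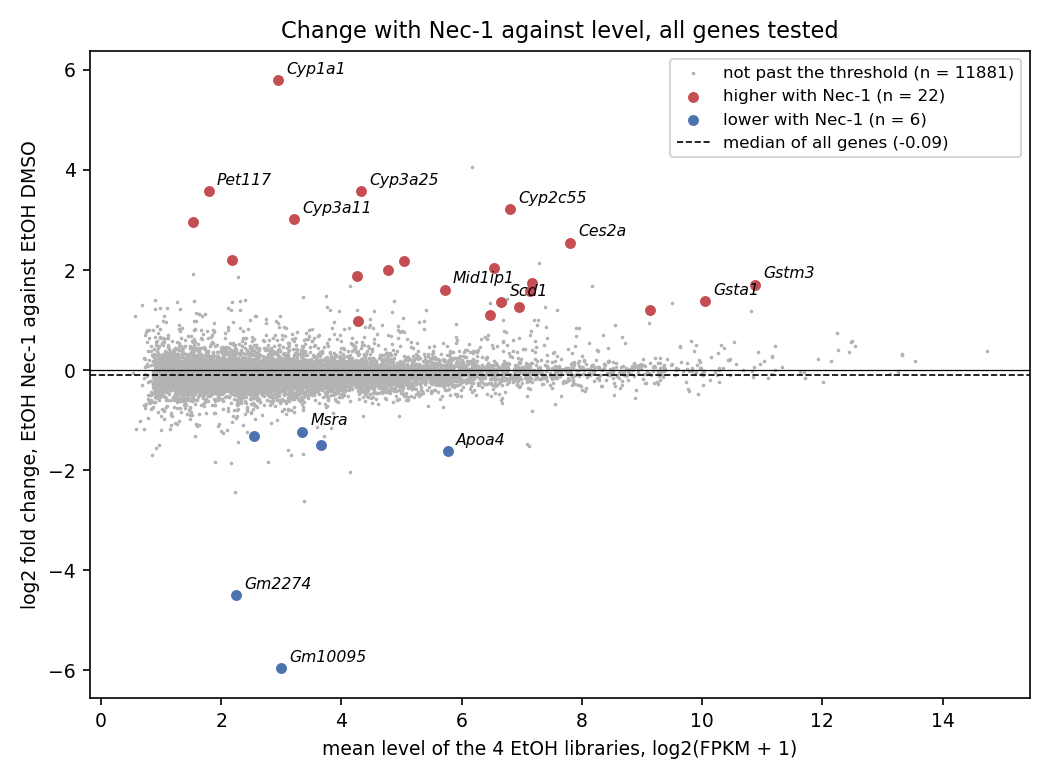
Log2 fold change between EtOH Nec-1 and EtOH DMSO against the mean level, log2(FPKM + 1), of the 4 EtOH libraries, with 1 point per gene (n = 11909). Red points are the 22 genes higher and blue points the 6 genes lower with a limma adjusted p under 0.05, and the dashed line is the median of all genes, -0.09.

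The count depends on the libraries in the fit. Leaving out EtOH DMSO library 1 or 2 gave 13 or 14 genes, of which 11 and 12 were among the 28. Leaving out EtOH Nec-1 library 1 or 2 gave 11 or 9 genes, of which 8 and 7 were among the 28. Leaving out either library labelled 4-OHT DMSO gave 85 genes, which include all 28, and a fit of the 4 EtOH libraries alone gave 87, again with all 28. A left-out library leaves its group with 1 library, which is assumed to vary like the other groups, as the 4-OHT Nec-1 library always is. *Cyp1a1*, *Cyp2c55*, *Cyp3a11*, *Cyp3a25*, *Pet117*, *Gm10095* and *Gm2274* passed in each of these fits.

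The gap between the groups was wide for the genes with the largest changes. Both Nec-1 libraries lay at least 1 log2 unit above both DMSO libraries for 44 genes (0.369% of genes compared) and at least 1 below for 18 (0.151%), a description without a test. Of these, 21 and 6 also passed the limma threshold. With smaller gaps counted as well, both Nec-1 values lay above both DMSO values for 1252 genes (10.5%) and below for 4722 (39.7%), and with median centring for 2733 and 2563.

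**Figure D2:**
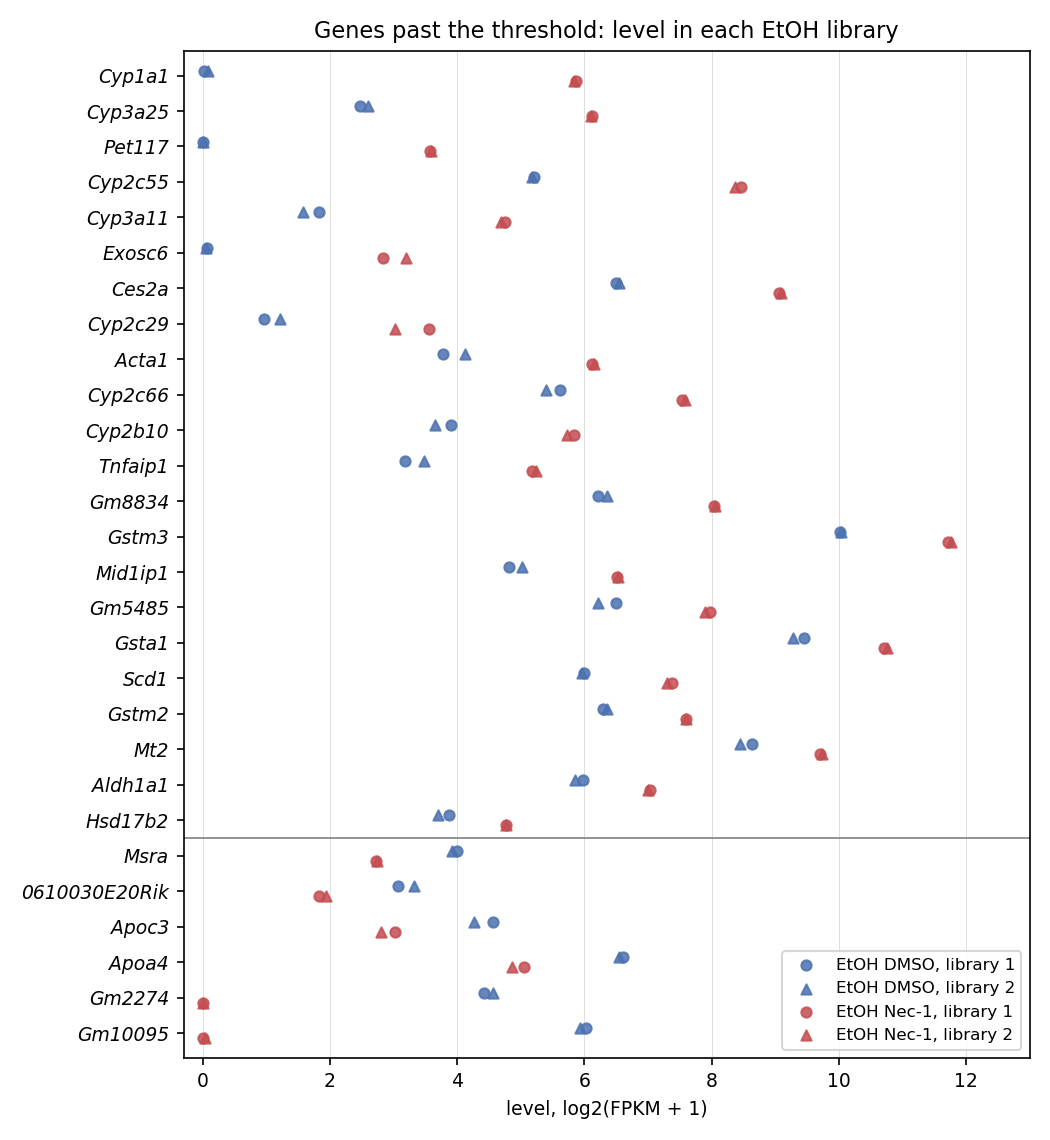
Level, log2(FPKM + 1), of each of the 28 genes with a limma adjusted p under 0.05 in the 2 EtOH DMSO libraries (blue) and the 2 EtOH Nec-1 libraries (red). Above the line are the 22 genes higher with Nec-1, from *Cyp1a1* (log2 fold change 5.80) to *Hsd17b2* (0.97), and below it the 6 lower ones.

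*Cyp1a1*, the classic target of AhR, encodes a P450 enzyme that oxidizes aromatic compounds. It was at 0.0180 and 0.0610 FPKM in the EtOH DMSO libraries and at 57.4 and 56.0 FPKM in the EtOH Nec-1 libraries. It went from near 0 to a well expressed gene in both Nec-1 libraries, with no overlap. Its log2 fold change was 5.80 (SE 0.11, limma adjusted p = 7.93e-05), the largest rise of the 28. With DMSO values near 0 this size depends on the pseudocount of 1, and it was 8.69 with 0.1 and 7.62 with 0.25. Its RefSeq promoter on build GRCm38.p6, chr9:57697363-57697662 on the plus strand, is shown because GCGTG, the core of the element that AhR and ARNT bind, occurs in it 54 bases before the start (capitals).
Cyp1a1: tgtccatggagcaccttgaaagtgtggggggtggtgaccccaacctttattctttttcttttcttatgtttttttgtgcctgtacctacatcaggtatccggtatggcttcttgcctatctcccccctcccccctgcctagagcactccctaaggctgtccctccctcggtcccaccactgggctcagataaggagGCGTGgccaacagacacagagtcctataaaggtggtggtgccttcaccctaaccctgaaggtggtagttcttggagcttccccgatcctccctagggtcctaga

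Of 8 listed AhR targets, 4 reached the level for a test, 1 of them rose and 0 fell (0.185% and 0.0504% of all genes), and all 4 lay above DMSO in every pairing, as 10.5% of all genes did. Their median log2 fold change was 0.80, beside -0.09 for all genes. This list and those below were chosen with earlier results of these data known, so their shares beside all genes are only a description. *Nqo1*, which reduces quinones, was at 176 and 180 FPKM with DMSO and at 322 and 318 FPKM with Nec-1. Its groups were well apart, but it missed the threshold (limma log2 fold change 0.84, SE 0.10, adjusted p = 0.0551). It passed without either 4-OHT DMSO library (limma adjusted p = 0.0159 and 0.0158) but not without an EtOH library (0.239 to 0.419). *Nqo1* also passed with median centring (limma adjusted p = 0.0410), upper quartile scaling (0.0322) and a filter at a mean of 5 FPKM (0.0393). *Ugt1a6a*, a glucuronosyltransferase, went from 28.8 and 20.4 to 44.1 and 40.0 FPKM, which did not pass (limma adjusted p = 0.385). *Tiparp* and *Ahr* itself were picked after their values were seen. *Tiparp*, which encodes an ADP-ribosyltransferase that restrains AhR, was at 9.37 and 9.97 FPKM with DMSO and at 10.3 and 10.9 FPKM with Nec-1 (limma log2 fold change 0.12, adjusted p = 0.624). *Ahr* was at 2.70 and 2.97 FPKM with DMSO and at 3.21 and 3.11 FPKM with Nec-1 (limma log2 fold change 0.12, adjusted p = 0.616). Thus *Cyp1a1* moved far more than the other targets. Below the level for a test, and also picked after their values were seen, *Cyp1a2* was at 0.0499 and 0 FPKM with DMSO and at 0.245 and 0.259 FPKM with Nec-1, and *Cyp1b1* was listed at 0 in both DMSO libraries and at 0.0431 and 0.2504 FPKM with Nec-1. *Ido1*, which encodes the IDO enzyme, was at 0.0262 and 0 FPKM with DMSO and at 0.285 and 0.176 FPKM with Nec-1, again too low for a test and picked after its values were seen.

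The receptors that control the other P450 genes differed little. *Nr1i2*, which encodes PXR, was at 20.5 and 23.6 FPKM with DMSO and at 23.2 and 24.02 FPKM with Nec-1 (limma log2 fold change 0.10, adjusted p = 0.683). *Nr1i3*, which encodes CAR and was picked after its values were seen, was at 21.3 and 23.1 FPKM with DMSO and at 22.6 and 23.2 FPKM with Nec-1 (limma log2 fold change 0.04, adjusted p = 0.868). The groups overlap for both genes, and without EtOH DMSO library 1 their log2 fold changes were -0.0018 and -0.01. *Por*, the reductase that passes electrons to P450 enzymes, was at 57.4 and 62.3 FPKM with DMSO and at 72.5 and 71.3 FPKM with Nec-1, above DMSO in every pairing but not past the threshold (limma adjusted p = 0.285). Over the 8 listed receptors and partners, all tested, 0 passed the limma threshold, beside 0.235% of all genes. In every pairing 3 lay above and 2 below DMSO (10.5% and 39.7% of all genes), and the median log2 fold change was 0.07.

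Cyp3 enzymes oxidize steroids, bile acids and many drugs, and 2 of their genes had large rises. *Cyp3a25* was at 4.57 and 5.05 FPKM with DMSO and at 68.8 and 67.9 FPKM with Nec-1. *Cyp3a11* was at 2.55 and 1.99 FPKM with DMSO and at 25.9 and 24.7 FPKM with Nec-1. Both genes were low in each DMSO library and many times higher in each Nec-1 library, by 3.58 (SE 0.08, limma adjusted p = 0.000110) and by 3.01 (SE 0.11, limma adjusted p = 0.000736) on the log2 scale. *Cyp3a13*, the most abundant Cyp3 gene without Nec-1, went from 50.1 and 46.2 to 75.5 and 72.6 FPKM, which did not pass (limma log2 fold change 0.61, adjusted p = 0.0788). Of 9 listed Cyp3 genes, 3 were tested, 2 rose and 0 fell (0.185% and 0.0504% of all genes), and 3 lay above DMSO in every pairing (10.5% of all genes). The median of 3.01 is the value of *Cyp3a11*. The others stayed below the level for a test in these 4 libraries.

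Among 37 listed Cyp2 genes, 15 were tested, 4 rose and 0 fell (0.185% and 0.0504% of all genes), and 9 lay above and 4 below DMSO in every pairing, beside 10.5% and 39.7% of all genes. Their median was 0.24. *Cyp2c55* was at 35.9 and 35.1 FPKM with DMSO and at 350 and 329 FPKM with Nec-1. That is 9.57 times the DMSO mean (limma log2 fold change 3.22, SE 0.11, adjusted p = 0.000479), and it made *Cyp2c55* the most abundant Cyp2 gene with Nec-1. *Cyp2c66* went from 48.2 and 41.3 to 184 and 189 FPKM (limma log2 fold change 2.04, SE 0.12, adjusted p = 0.00617). *Cyp2b10*, the best known target of CAR, went from 14.0 and 11.5 to 56.3 and 52.0 FPKM (limma log2 fold change 2.01, SE 0.11, adjusted p = 0.00516). *Cyp2c29* went from 0.953 and 1.32 to 10.8 and 7.10 FPKM (limma log2 fold change 2.20, SE 0.22, adjusted p = 0.0409). The Nec-1 libraries lay above the DMSO libraries for all 4 genes, and for *Cyp2c29* they differed most from each other. Without 1 of the EtOH libraries, *Cyp2c66* and *Cyp2c29* did not pass in any of the 4 fits (limma adjusted p 0.0600 to 0.0976 and 0.0919 to 0.262). *Cyp2b10* did not pass without EtOH Nec-1 library 1 or 2 (limma adjusted p = 0.0842 and 0.0822). *Cyp2c65* went from 128 and 120 to 218 and 238 FPKM, short of the threshold (limma adjusted p = 0.0709), and passed without either 4-OHT DMSO library (limma adjusted p = 0.0231 and 0.0230) but not without an EtOH library (0.262 to 0.443). The Cyp2c and Cyp3a genes have close paralogs, between which fragments may have been shared when the authors made the values.

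The promoters of *Cyp3a25*, *Cyp3a11* and *Cyp2b10* are shown because these genes rose together and hold letters that were searched for. AGTTCA and AGGTCA are hexamers that nuclear receptors such as PXR and CAR bind in pairs. *Cyp3a11* (chr5:145879805-145880104, minus strand) holds AGGTCA at 162 and, on the other strand, AGTTCA at 142 bases before its start. *Cyp3a25* (chr5:146009568-146009867, minus strand) holds AGGTCA in both orientations, at 177 and 156 bases before its start. *Cyp2b10* (chr7:25897408-25897707, plus strand) holds neither hexamer in this window but GCGTG in both orientations, at 101 and 9 bases before its start. Capitals mark the matches on either strand, and the sequences are RefSeq's on GRCm38.p6.
Cyp3a11: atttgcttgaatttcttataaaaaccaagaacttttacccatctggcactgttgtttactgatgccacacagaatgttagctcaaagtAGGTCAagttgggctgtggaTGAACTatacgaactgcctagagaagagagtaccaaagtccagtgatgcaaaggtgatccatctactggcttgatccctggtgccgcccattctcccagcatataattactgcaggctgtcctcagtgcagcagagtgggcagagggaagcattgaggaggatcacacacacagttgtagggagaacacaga
Cyp3a25: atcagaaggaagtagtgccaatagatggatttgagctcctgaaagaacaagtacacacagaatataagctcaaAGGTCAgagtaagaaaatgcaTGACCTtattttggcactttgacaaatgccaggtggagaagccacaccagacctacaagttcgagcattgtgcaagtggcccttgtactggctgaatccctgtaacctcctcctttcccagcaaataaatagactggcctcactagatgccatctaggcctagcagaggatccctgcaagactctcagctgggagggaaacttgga
Cyp2b10: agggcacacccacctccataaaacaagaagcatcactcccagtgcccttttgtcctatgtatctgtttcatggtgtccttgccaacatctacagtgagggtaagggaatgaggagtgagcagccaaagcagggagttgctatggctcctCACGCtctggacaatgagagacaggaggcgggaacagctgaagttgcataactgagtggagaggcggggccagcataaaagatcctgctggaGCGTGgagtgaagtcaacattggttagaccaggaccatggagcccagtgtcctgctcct

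Of the 28 genes, 21 have a promoter in the RefSeq table, which spans 250 bases before to 50 after the start. GCGTG or its complement CACGC was in 6 of these 21 (*Cyp1a1*, *Cyp2b10*, *Exosc6*, *Gsta1*, *Mt2* and *Tnfaip1*), beside 32.4% of all 32851 promoters. AGTTCA was in 3 of 21 and 14.0% of all promoters, and AGGTCA in 5 of 21 and 16.3%. Either hexamer was in 6 of 21 (*Apoa4*, *Ces2a*, *Cyp2c29*, *Cyp3a11*, *Cyp3a25* and *Gm5485*) and in 27.7% of all promoters, counted on both strands. These shares are near those of all promoters, and a match describes letters, not a bound site. *Cyp2c55*, *Cyp2c66*, *Gstm2* and *Gstm3* also rose and are among the genes whose promoter held no match.

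Carboxylesterases hydrolyse esters of drugs and lipids. *Ces2a*, the most abundant of them with Nec-1, was at 89.5 and 92.2 FPKM with DMSO and at 531 and 542 FPKM with Nec-1. It was thus 5.91 times the DMSO mean with no overlap (limma log2 fold change 2.55, SE 0.16, adjusted p = 0.00703), although not past the threshold without any 1 of the EtOH libraries (limma adjusted p 0.0996 to 0.130). Of 10 carboxylesterases tested among 19 listed, 1 rose and 0 fell, beside 0.185% and 0.0504% of all genes. In every pairing 9 lay above and 1 below DMSO (10.5% and 39.7% of all genes), and the median was 0.62. *Ces1g* went from 26.8 and 29.9 to 56.5 and 58.1 FPKM (limma adjusted p = 0.0701) and *Ces1f* from 189 and 179 to 327 and 330 FPKM (limma adjusted p = 0.131), while *Ces2e* stayed between 276 and 299 FPKM in all 4 libraries. *Ces1g* and *Ces1f* passed without a 4-OHT DMSO library, library 1 (limma adjusted p = 0.0209 and 0.0197) or library 2 (0.0212 and 0.0200), but not without an EtOH library (0.236 to 0.419 and 0.311 to 0.635). Summed over the 19 genes, carboxylesterases were at 794 and 801 FPKM with DMSO and at 1526 and 1531 FPKM with Nec-1.

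Glutathione S-transferases couple glutathione to reactive compounds. Summed over the 26 listed genes found, they were at 6200 and 6106 FPKM with DMSO and at 11968 and 12197 FPKM with Nec-1. Of 24 tested, 3 rose and 0 fell (0.185% and 0.0504% of all genes), and 15 lay above and 5 below DMSO in every pairing, beside 10.5% and 39.7% of all genes. The median was 0.33. *Gstm3*, the most abundant with Nec-1, went from 1036 and 1051 to 3363 and 3467 FPKM (limma log2 fold change 1.71, SE 0.17, adjusted p = 0.0414). *Gsta1* went from 696 and 622 to 1679 and 1735 FPKM (limma log2 fold change 1.37, SE 0.11, adjusted p = 0.0149), and *Gstm2* from 77.5 and 81.1 to 193 and 192 FPKM (limma log2 fold change 1.27, SE 0.11, adjusted p = 0.0210). The replicates were close and the groups far apart for each. Even so, none of these 3 passed without 1 of the 4 EtOH libraries, with limma adjusted p of 0.231 to 0.396 for *Gstm3*, 0.0793 to 0.277 for *Gsta1* and 0.158 to 0.2504 for *Gstm2*. *Gstm1* went from 1187 and 1204 to 2679 and 2745 FPKM without passing (limma adjusted p = 0.0677), and it passed without 4-OHT DMSO library 1 or 2 (limma adjusted p = 0.00758 and 0.00748) but not without an EtOH library (0.273 to 0.443). Sequences of these genes are alike, so their values may have shared fragments.

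No glucuronosyltransferase, sulfotransferase or drug transporter gene passed the limma threshold, which 0.235% of all genes passed. Of 10 glucuronosyltransferases tested among 22 listed, 8 lay above DMSO in every pairing and 0 below, beside 10.5% and 39.7% of all genes, with a median of 0.66. *Ugt2b34*, the most abundant, went from 255 and 255 to 402 and 425 FPKM (limma log2 fold change 0.69, adjusted p = 0.123), and *Ugt2b5* from 25.6 and 18.5 to 45.0 and 47.2 FPKM (limma log2 fold change 1.05, adjusted p = 0.124). Among 4 sulfotransferases tested of 12 listed, with a median of 0.26, *Sult1d1* went from 118 and 98.8 to 213 and 224 FPKM (limma log2 fold change 1.01, adjusted p = 0.124). Of 13 drug transporters tested among 19 listed, 5 lay above and 1 below in every pairing, against the same shares of all genes, with a median of 0.14. *Abcb1a*, which encodes the export pump P-glycoprotein, went from 24.2 and 29.97 to 66.1 and 60.3 FPKM (limma log2 fold change 1.20, adjusted p = 0.0878), and *Abcc2* from 26.6 and 33.8 to 54.1 and 54.0 FPKM (limma adjusted p = 0.107). Leaving out either 4-OHT DMSO library brought *Ugt2b34* (limma adjusted p = 0.0326 both times), *Sult1d1* (0.0322 and 0.0321) and *Abcb1a* (0.0284 and 0.0272) past the threshold. Without an EtOH library they did not pass (limma adjusted p 0.311 to 0.579 for *Ugt2b34*, 0.308 to 0.561 for *Sult1d1* and 0.231 to 0.499 for *Abcb1a*).

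**Figure D3:**
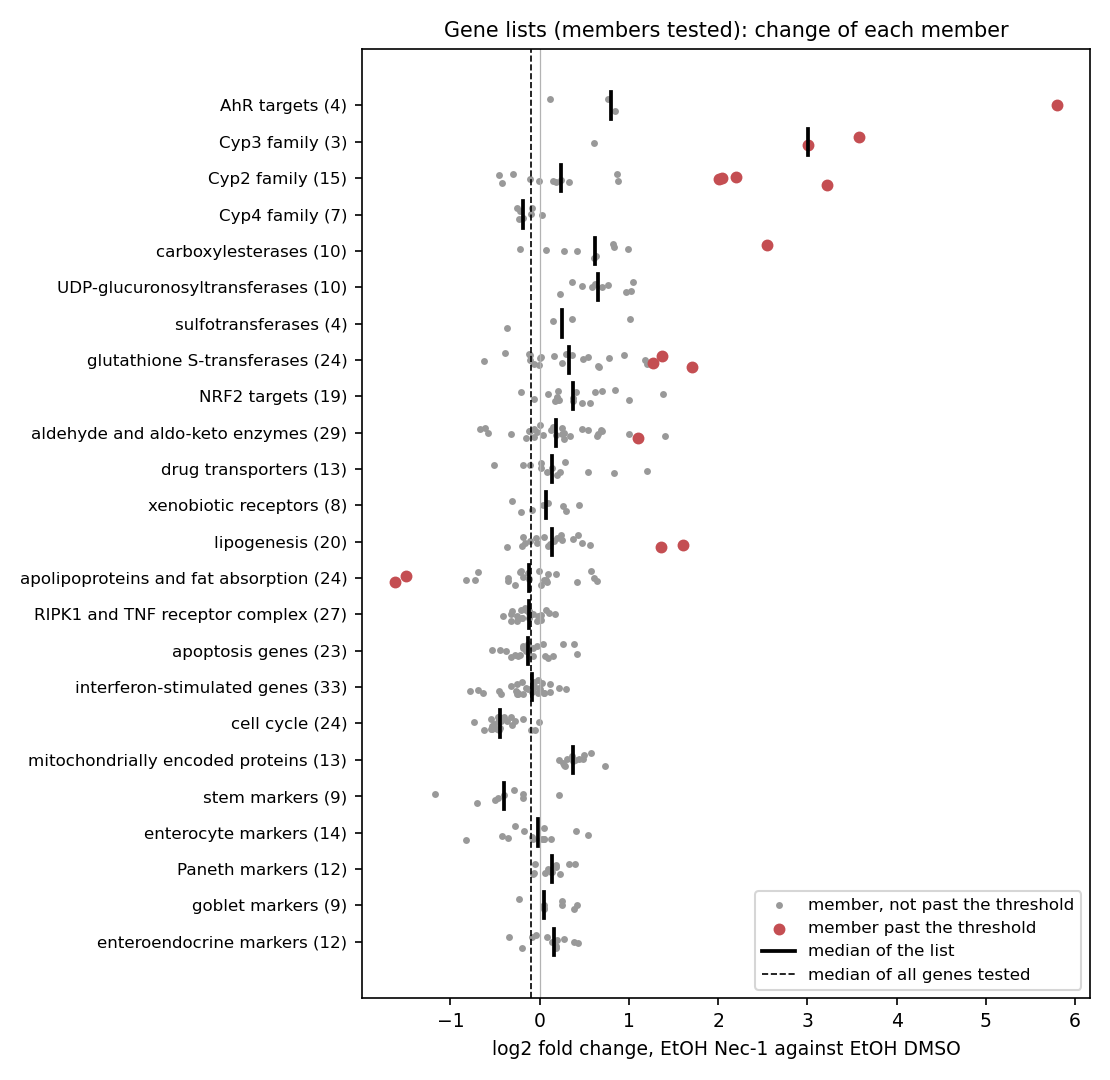
Log2 fold change between EtOH Nec-1 and EtOH DMSO of each tested member of 24 gene lists, 1 point per gene, with the number tested in brackets. Red points have a limma adjusted p under 0.05, black bars are list medians, and the dashed line is the median of all genes, -0.09. The medians of Cyp3 genes (3.01), AhR targets (0.80), glucuronosyltransferases (0.66) and carboxylesterases (0.62) lie furthest to the right.

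Targets of NRF2, the factor that answers oxidative and electrophilic stress, were mostly above DMSO as well. Of 19 tested, 0 passed the limma threshold (0.235% of all genes). In every pairing 14 lay above and 1 below DMSO, beside 10.5% and 39.7% of all genes. The median was 0.37. *Slc7a11*, the cystine importer that feeds glutathione synthesis, was at 2.69 and 3.20 FPKM with DMSO and at 6.88 and 6.88 FPKM with Nec-1 (limma log2 fold change 1.00, adjusted p = 0.0551). It passed without 4-OHT DMSO library 1 or 2 (limma adjusted p = 0.0346 and 0.0341) but not without an EtOH library (0.146 to 0.419). *Gclm*, a subunit of the enzyme that makes the glutathione precursor, went from 19.1 and 15.6 to 69.0 and 31.1 FPKM, with a wide gap between the Nec-1 libraries (limma adjusted p = 0.288). *Fth1*, the ferritin heavy chain and the most abundant of the list with Nec-1, went from 1278 and 1160 to 1767 and 1843 FPKM (limma adjusted p = 0.164).

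Among 29 tested genes of aldehyde, alcohol, retinol and ketone enzymes of 34 listed, 1 rose and 0 fell (0.185% and 0.0504% of all genes), and 17 lay above and 8 below DMSO in every pairing, beside 10.5% and 39.7% of all genes. The median was 0.19. The gene that rose was *Aldh1a1*, whose enzyme turns retinaldehyde into retinoic acid. *Aldh1a1* went from 62.0 and 56.9 to 130 and 127 FPKM (limma log2 fold change 1.10, SE 0.09, adjusted p = 0.0204). *Akr1b7*, an aldo-keto reductase, went from 2.61 and 1.90 to 7.30 and 7.79 FPKM without passing (limma log2 fold change 1.40, adjusted p = 0.0551). *Adh1*, the most abundant of the list with DMSO, was at 451 and 431 FPKM with DMSO and at 395 and 423 FPKM with Nec-1. *Hsd17b2*, which encodes an enzyme that oxidizes sex steroids and was in none of the lists, went from 13.7 and 12.0 to 26.2 and 26.1 FPKM (limma log2 fold change 0.97, SE 0.09, adjusted p = 0.0325). It lies outside the 20 largest rises and is named after its values were seen. Neither *Aldh1a1* nor *Hsd17b2* passed without 1 of the 4 EtOH libraries (limma adjusted p 0.127 to 0.2504 and 0.104 to 0.348), and *Akr1b7* passed without either 4-OHT DMSO library (limma adjusted p = 0.0290 and 0.0278) but not without an EtOH library (0.165 to 0.419).

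Genes of fat handling moved in both directions. *Scd1*, the desaturase that makes monounsaturated fatty acids, was at 62.9 and 61.0 FPKM with DMSO and at 165 and 157 FPKM with Nec-1. *Mid1ip1*, whose product helps acetyl-CoA carboxylase assemble for fatty acid synthesis, was at 27.1 and 31.4 FPKM with DMSO and at 90.5 and 91.2 FPKM with Nec-1. Both rose well beyond the gap between replicates, by 1.36 (SE 0.08, limma adjusted p = 0.00516) and by 1.61 (SE 0.10, limma adjusted p = 0.00703) on the log2 scale. Of 20 lipogenesis genes tested among 23 listed, these 2 rose and 0 fell (0.185% and 0.0504% of all genes), and the median was 0.14. *Scd1* did not pass without 1 of the 4 EtOH libraries (limma adjusted p 0.0607 to 0.101). *Mid1ip1* did not pass without EtOH DMSO library 1 (limma adjusted p = 0.0607) or EtOH Nec-1 library 1 or 2 (0.104 and 0.108). *Scd2*, the most abundant of the list, went from 282 and 310 to 399 and 400 FPKM (limma adjusted p = 0.270). Of 25 genes of cholesterol synthesis and uptake, all tested, 0 passed the limma threshold (0.235% of all genes). In every pairing 12 lay above and 2 below DMSO (10.5% and 39.7% of all genes), and the median was 0.10.

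*Apoa4*, an apolipoprotein that enterocytes secrete on chylomicrons, was at 96.2 and 92.6 FPKM with DMSO and at 32.2 and 27.9 FPKM with Nec-1. *Apoc3*, an inhibitor of triglyceride clearance from the same gene cluster, was at 22.7 and 18.2 FPKM with DMSO and at 7.11 and 6.01 FPKM with Nec-1. Both were at about 0.319 and 0.321 of their DMSO means, with no overlap, and fell with log2 fold changes of -1.62 (SE 0.11, limma adjusted p = 0.00926) and -1.501 (SE 0.14, limma adjusted p = 0.0289). With median centring *Apoc3* did not pass (limma adjusted p = 0.0528). Without 1 of the 4 EtOH libraries neither passed (limma adjusted p 0.0842 to 0.134 for *Apoa4* and 0.0925 to 0.2504 for *Apoc3*). *Apoa1*, from the same cluster, went from 199 and 183 to 114 and 102 FPKM, short of the threshold (limma log2 fold change -0.82, SE 0.09, adjusted p = 0.0551), and it passed without 4-OHT DMSO library 1 or 2 (limma adjusted p = 0.0360 and 0.0354) but not without an EtOH library (0.206 to 0.419). Of 24 apolipoprotein and fat absorption genes tested among 29 listed, 0 rose and 2 fell (0.185% and 0.0504% of all genes), 7 lay above and 11 below DMSO in every pairing (10.5% and 39.7%), and the median was -0.12. The promoter of *Apoa4* (chr9:46240594-46240893, plus strand, RefSeq, GRCm38.p6) is shown because, of the 6 genes that fell past the threshold, *Apoa4* had the largest change of a gene with known function, with AGTTCA in capitals 179 bases before the start.
Apoa4: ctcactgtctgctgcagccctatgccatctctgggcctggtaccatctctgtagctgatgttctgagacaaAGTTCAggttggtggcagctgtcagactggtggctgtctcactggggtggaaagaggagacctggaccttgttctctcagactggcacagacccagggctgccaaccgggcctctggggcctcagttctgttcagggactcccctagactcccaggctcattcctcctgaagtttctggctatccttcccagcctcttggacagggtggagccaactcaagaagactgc

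Bile acid genes gave values on both sides. *Fabp6*, the ileal bile acid carrier, was at 6.72 and 3.98 FPKM with DMSO and at 17.4 and 14.9 FPKM with Nec-1 (limma log2 fold change 1.46, SE 0.33, adjusted p = 0.202). *Slc51b*, a subunit of the bile acid exporter, went from 5.93 and 6.79 to 11.9 and 10.99 FPKM (limma adjusted p = 0.241), and *Fgfr4* from 2.99 and 3.42 to 1.40 and 1.19 FPKM (limma adjusted p = 0.131). Of the 6 tested of 9 listed, 0 passed the limma threshold (0.235% of all genes), 3 lay above and 1 below DMSO in every pairing (10.5% and 39.7%), and their median was 0.22.

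Other genes that passed belong to no common group. *Acta1*, the skeletal muscle actin, went from 12.8 and 16.3 to 68.7 and 69.7 FPKM (limma log2 fold change 2.19, SE 0.12, adjusted p = 0.00516). *Tnfaip1*, an adaptor of a ubiquitin ligase, went from 8.04 and 10.2 to 35.1 and 36.7 FPKM (limma log2 fold change 1.88, SE 0.12, adjusted p = 0.00703). *Mt2*, a metallothionein that binds zinc and copper, went from 394 and 346 to 835 and 854 FPKM (limma log2 fold change 1.19, SE 0.11, adjusted p = 0.0325). In each the Nec-1 libraries were close to one another and well above DMSO. *Acta1* and *Tnfaip1* did not pass without EtOH Nec-1 library 1 (limma adjusted p = 0.0842 and 0.101) or library 2 (0.0912 and 0.107), and *Mt2* did not pass without 1 of the 4 EtOH libraries (0.139 to 0.376). *Msra*, which repairs oxidized methionine, fell from 15.0 and 14.1 to 5.62 and 5.69 FPKM (limma log2 fold change -1.23, SE 0.09, adjusted p = 0.0109), and the uncharacterized *0610030E20Rik* from 7.43 and 9.005 to 2.54 and 2.82 FPKM (limma log2 fold change -1.32, SE 0.12, adjusted p = 0.0258). These 2 also did not pass without 1 of the 4 EtOH libraries (limma adjusted p 0.0925 to 0.169 and 0.0793 to 0.241). *Msra*, *Aldh1a1* and *Hsd17b2* overlap other RefSeq genes, and whether strand was used in quantification is not stated.

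The remaining genes that passed are pseudogenes, a lncRNA and genes near 0 in 1 of the groups. *Pet117*, an assembly factor of cytochrome c oxidase that overlaps *Kat14*, was at 0.000268 and 0.00458 FPKM with DMSO and at 10.8 and 11.1 FPKM with Nec-1 (limma log2 fold change 3.58, SE 0.10, adjusted p = 0.000226). *Exosc6*, a subunit of the RNA exosome, was at 0.0473 and 0.0389 FPKM with DMSO and at 6.15 and 8.15 FPKM with Nec-1 (limma log2 fold change 2.95, SE 0.16, adjusted p = 0.00516). The pseudogene *Gm10095*, which overlaps the lncRNA gene *Gm51955*, was at 64.4 and 60.1 FPKM with DMSO and at 0 and 0.0268 FPKM with Nec-1 (limma adjusted p = 3.85e-05). The transcribed pseudogene *Gm2274* was at 20.4 and 22.7 FPKM with DMSO and is listed at 0 in both Nec-1 libraries (limma adjusted p = 7.93e-05). The values of all 4 genes were near 0 in 1 group and at a clear level in the other. Whether this reflects expression or how fragments were assigned to overlapping or similar sequences was not tested. With values near 0, the sizes of their log2 fold changes depend on the pseudocount of 1. *Exosc6* did not pass without EtOH DMSO library 1 or 2 (limma adjusted p = 0.0738 and 0.0678) or EtOH Nec-1 library 2 (0.0522). The pseudogene *Gm8834* went from 73.3 and 81.2 to 261 and 263 FPKM (limma log2 fold change 1.75, SE 0.13, adjusted p = 0.0109) and the lncRNA *Gm5485* from 89.3 and 72.8 to 249 and 238 FPKM (limma log2 fold change 1.58, SE 0.11, adjusted p = 0.0109). *Gm8834* did not pass without 1 of the 4 EtOH libraries (limma adjusted p 0.0996 to 0.156), and *Gm5485* not without EtOH Nec-1 library 1 or 2 (0.1399 and 0.137).

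The pathway that Nec-1 is used to block was near the median of all genes. Of 27 genes of the RIPK1 and TNF receptor complex tested among 28 listed, 0 passed the limma threshold (0.235% of all genes). In every pairing 1 lay above and 13 below DMSO, beside 10.5% and 39.7% of all genes. Their median was -0.12, beside -0.09 for all genes, and with median centring it was -0.02. *Casp8*, the most abundant, was at 48.7 and 50.6 FPKM with DMSO and at 49.98 and 50.4 FPKM with Nec-1 (limma log2 fold change 0.02, adjusted p = 0.964). Its sign turned without EtOH DMSO library 1 (-0.01) and with scaling that leaves out mitochondrial genes (-0.02), which was added once the values were known. *Ripk3* was at 32.9 and 33.2 FPKM with DMSO and at 28.7 and 32.4 FPKM with Nec-1. *Traf2*, an adaptor of the TNF receptor, had the lowest log2 fold change of the list, -0.41 (SE 0.13, limma adjusted p = 0.292), with 3.24 and 4.04 FPKM against 2.32 and 2.65 FPKM.

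Lists of death and defence genes had medians likewise close to that of all genes, with 0 members past the limma threshold (0.235% of all genes). The median was -0.13 over 23 apoptosis genes, -0.09 over 12 tested of 22 NF-κB response genes and -0.08 over 33 tested of 63 interferon-stimulated genes. In every pairing 2 apoptosis, 2 NF-κB and 2 interferon genes lay above DMSO, beside 10.5% of all genes. Below it lay 10, 4 and 13, beside 39.7%. *Bbc3*, which encodes the death inducer PUMA, was at 4.80 and 4.53 FPKM with DMSO and at 3.06 and 3.25 FPKM with Nec-1 (limma log2 fold change -0.45, adjusted p = 0.189). *Nfkbia*, the NF-κB inhibitor and most abundant of its list, was at 59.3 and 57.9 FPKM with DMSO and at 66.9 and 67.2 FPKM with Nec-1 (limma adjusted p = 0.329). *Ifi27* had the largest change of the interferon list and went from 6.18 and 5.85 to 3.52 and 2.72 FPKM (limma log2 fold change -0.78, SE 0.12, adjusted p = 0.109). *Oas1a* went from 3.71 and 3.81 to 1.58 and 2.36 FPKM (limma adjusted p = 0.168). Stress lists gave medians of -0.20 over 18 genes of the integrated stress response, -0.20 over 15 p53 targets, -0.14 over 15 immediate early genes and -0.01 over 18 genes of the unfolded protein response. With median centring the medians of the NF-κB, interferon and unfolded protein lists turned to 0.02, 0.02 and 0.10, so their directions depend on the scaling.

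Cell cycle genes lay lower than most. Of 24 tested, 0 passed the limma threshold (0.235% of all genes). In every pairing 0 lay above and 20 below DMSO, beside 10.5% and 39.7% of all genes. The median was -0.45, or -0.34 with median centring. *Ccnb2*, a mitotic cyclin, was at 52.98 and 50.3 FPKM with DMSO and at 36.7 and 37.7 FPKM with Nec-1 (limma log2 fold change -0.46, SE 0.08, adjusted p = 0.127). *Mcm3*, part of the replication helicase, went from 11.6 and 10.5 to 6.45 and 5.97 FPKM (limma log2 fold change -0.74, SE 0.19, adjusted p = 0.241). Stem cell markers had a median of -0.40 over 9 tested of 10, with 1 above and 8 below DMSO in every pairing (10.5% and 39.7% of all genes), and summed to 107 and 110 FPKM with DMSO and to 91.7 and 89.0 FPKM with Nec-1. *Ascl2*, a stem cell factor, went from 2.70 and 1.98 to 0.415 and 0.525 FPKM (limma log2 fold change -1.18, SE 0.19, adjusted p = 0.123), *Olfm4* from 24.3 and 21.4 to 18.3 and 16.0 FPKM (limma adjusted p = 0.505), and *Slc12a2*, the most abundant with DMSO, from 28.6 and 29.0 to 22.4 and 24.4 FPKM (limma adjusted p = 0.569). In bulk RNA fewer cells of a type and less RNA per cell cannot be told apart.

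Markers of the other epithelial cell types were present and had 0 members past the limma threshold (0.235% of all genes). In every pairing 4 enterocyte, 6 Paneth, 4 goblet, 6 enteroendocrine and 2 tuft markers lay above DMSO, beside 10.5% of all genes. Below it lay 5, 0, 0, 2 and 1, beside 39.7%. Enterocyte markers (14 tested of 16) had a median of -0.02 and summed to 1624, 1583, 1380 and 1373 FPKM in EtOH DMSO libraries 1 and 2 and EtOH Nec-1 libraries 1 and 2, with *Fabp1* the most abundant, and with median centring their median turned to 0.08. Paneth markers (12 of 12) had a median of 0.14 and sums of 10512, 9484, 11089 and 10925 FPKM, led by *Defa24*. Goblet markers (9 of 10) had a median of 0.05 and sums of 1420, 1328, 1497 and 1481 FPKM, led by *Tff3* and with *Retnlb* at 0, and enteroendocrine markers (12 of 12) had a median of 0.16 and sums of 463, 470, 485 and 530 FPKM, led by *Gip* with DMSO. The sums of these secretory lists differed little between the groups. Tuft markers (5 of 10) had a median of 0.13 and sums of 12.4, 13.3, 15.7 and 16.2 FPKM, with *Il25* and *Gnat3* at 0. Markers of cells outside the epithelium were nearly absent. Stromal markers summed to 1.54, 1.33, 0.948 and 1.27 FPKM, with *Vim* the most abundant, 0 of 10 tested and *Lum* at 0 in all 4 libraries. Immune markers (3 of 10) summed to 3.51, 3.62, 6.22 and 5.67 FPKM, with *Itgam* the most abundant and *Itgax* at 0. Part of their difference is *Lyz2*, at 0.634 and 0.237 FPKM with DMSO and at 2.52 and 1.55 FPKM with Nec-1 (limma adjusted p = 0.197).

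Mitochondrially encoded genes took a larger share of all FPKM with Nec-1. The 37 genes made up 16.4% and 15.7% of the sum in the EtOH DMSO libraries and 19.9% and 19.0% in the EtOH Nec-1 libraries. Of 13 protein genes tested, 0 passed the limma threshold (0.235% of all genes). In every pairing 12 lay above DMSO (10.5% of all genes), and the median was 0.38. *mt-Co1*, the most abundant gene of all 4 libraries, was at 25402 and 22694 FPKM with DMSO and at 32028 and 30294 FPKM with Nec-1 (limma log2 fold change 0.38, SE 0.14, adjusted p = 0.346). With FPKM scaled to a common sum of the other genes, an alternative added once the values were known, 30 genes passed the limma threshold, and they include the 28. The tRNA gene *mt-Ts2*, picked after its values were seen, is the high grey point near a log2 fold change of 4.06 in the plot of change against level. It was at 0.323 and 232 FPKM in the DMSO libraries and at 388 and 221 FPKM with Nec-1, so the groups overlap, and it passed only without EtOH DMSO library 2 (limma adjusted p = 0.0270, and 0.474 with all libraries).

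Metabolic and clock genes gave smaller differences. Genes of fructose metabolism and gluconeogenesis had a median of -0.17 over 12 tested, with 3 above and 9 below DMSO in every pairing (10.5% and 39.7% of all genes). Among them *G6pc*, the last enzyme of glucose release, went from 2.23 and 1.83 to 0.718 and 0.618 FPKM (limma log2 fold change -0.86, SE 0.14, adjusted p = 0.123). Clock genes had a median of -0.22 over 15 tested, m6A writers, erasers and readers -0.10 over 16, Cyp4 genes -0.19 over 7 and regenerative epithelium genes -0.29 over 9. Hypoxia and glycolysis genes (21 tested) and PPAR targets (22 tested) had medians of -0.01 and -0.02, 6 AhR complex genes -0.08 and 2 tryptophan-kynurenine enzymes -0.06. With median centring these 4 medians turned to 0.09, 0.09, 0.03 and 0.05, and that of the m6A list to 0.00. None of these lists held a gene past the limma threshold, which 0.235% of all genes passed.

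Some genes were well separated without passing. *S100g*, which encodes the calcium carrier calbindin-D9k and, like the next genes, was picked after its values were seen, was at 75.9 and 70.7 FPKM with DMSO and at 308 and 348 FPKM with Nec-1 (limma log2 fold change 2.14, SE 0.29, adjusted p = 0.0909). *Akp3*, an intestinal alkaline phosphatase, went from 8.99 and 8.69 to 26.2 and 35.5 FPKM (limma adjusted p = 0.1003), and *Cyb5a*, the cytochrome b5 that gives electrons to P450 and desaturase enzymes, from 115 and 99.8 to 262 and 258 FPKM (limma adjusted p = 0.0663). On the lower side were 3 genes of secreted lectins, also picked after their values were seen. *Reg1* went from 43.3 and 28.1 to 9.80 and 6.16 FPKM (limma log2 fold change -2.03, SE 0.29, adjusted p = 0.102), *Reg3a* from 18.1 and 16.6 to 4.96 and 4.51 FPKM (limma adjusted p = 0.102) and *Reg3b* from 4.75 and 4.61 to 1.64 and 1.74 FPKM (limma adjusted p = 0.1003). In all of these both Nec-1 libraries lay at least 1 log2 unit from both DMSO libraries. *Reg1* also did not pass with only the 4 EtOH libraries (limma adjusted p = 0.0594). Without 4-OHT DMSO library 1 or 2, the limma adjusted p was 0.00201 and 0.00199 for *S100g*, 0.0209 and 0.0212 for *Akp3*, 0.00941 and 0.00946 for *Cyb5a*, 0.00503 and 0.00470 for *Reg3a* and 0.0231 and 0.0227 for *Reg3b*. Without an EtOH library these did not pass (limma adjusted p 0.311 to 0.443 for *S100g* and *Akp3*, 0.261 to 0.419 for *Cyb5a*, 0.311 to 0.494 for *Reg3a* and 0.311 to 0.516 for *Reg3b*). Scaling also brought some uncalled genes past the threshold, with median centring *Ces1g* and *Slc7a11* (limma adjusted p = 0.0395 and 0.0300) and with upper quartile scaling these (0.0369 and 0.0350) and *Cyp2c65*, *Gstm1*, *Akr1b7* and *Cyb5a* (0.0381 each).

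In organoids labelled 4-OHT, the Nec-1 comparison has 1 library against 2 and shares no library with the EtOH comparison. *Cyp1a1* had 0.322 and 0.103 FPKM in 4-OHT DMSO libraries and 170 FPKM in the 4-OHT Nec-1 library, all by label, a log2 difference of 7.14 beside 5.80 in EtOH organoids. *Cyp3a11* was at 2.43 and 2.30 FPKM and at 34.8 FPKM with Nec-1 (3.41 beside 3.01), *Cyp2c55* at 16.2 and 19.5 FPKM and at 290 FPKM (3.95 beside 3.22), and *Gstm3* at 219 and 309 FPKM and at 2393 FPKM (3.20 beside 1.71). *Apoa4* was at 104 and 90.7 FPKM and at 38.0 FPKM with Nec-1 (-1.33 beside -1.62). Of the 28 genes, which were picked by their EtOH change, *Exosc6*, *Tnfaip1*, *Mid1ip1*, *Msra* and *Gm10095* had opposite signs in the 2 kinds of organoid. How often any gene kept its sign was not worked out, so the agreement of the others has no share to be set against. The difference between the 2 changes was tested with limma's interaction term, although the spread of the 4-OHT Nec-1 group is unmeasured with 1 library. The adjustment ran over all 11909 genes, of which 6 passed. Of 187 genes named by rule, some of them for their large EtOH change, 4 had a limma adjusted p under 0.05, *Mid1ip1*, *Exosc6*, *Gm10095* and *Gm2274*.

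*Mid1ip1* had 122 and 134 FPKM under the label 4-OHT DMSO and 43.9 FPKM under the label 4-OHT Nec-1, while in EtOH organoids it rose with Nec-1. The change in the 1 library labelled 4-OHT Nec-1 minus that in EtOH organoids was -3.13 on the log2 scale (SE 0.16, limma adjusted p = 0.0106). *Exosc6* was at 0.299 and 0.400 FPKM in 4-OHT DMSO and at 0.0711 FPKM in 4-OHT Nec-1 (difference -3.29, SE 0.25, limma adjusted p = 0.0481). *Gm10095* was listed at 0 in the 2 libraries with the label 4-OHT DMSO and at 35.1 FPKM in 4-OHT Nec-1 (limma adjusted p = 1.54e-05), the reverse of EtOH organoids. *Gm2274* was at 23.6 and 25.5 FPKM in 4-OHT DMSO and at 13.5 FPKM in 4-OHT Nec-1 (limma adjusted p = 0.00444). Leaving out EtOH DMSO library 1 or 2, or EtOH Nec-1 library 1, left 1 of the 4, *Gm10095*, and leaving out EtOH Nec-1 library 2 left 2, *Gm10095* and *Gm2274*. Without 4-OHT DMSO library 1 the interaction passed for 19 genes, and without library 2 for 5, with *Exosc6* at a limma adjusted p of 0.0502. *Tnfaip1* was at 38.8 and 37.7 FPKM in 4-OHT DMSO and at 34.9 FPKM in 4-OHT Nec-1, near its level in EtOH Nec-1, and its interaction did not pass (limma adjusted p = 0.0743). *Msra* was at 5.95 and 6.54 FPKM in 4-OHT DMSO and at 8.25 FPKM in 4-OHT Nec-1 (0.35 beside -1.23), and its interaction did not pass either (limma adjusted p = 0.0743).

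**Figure D4:**
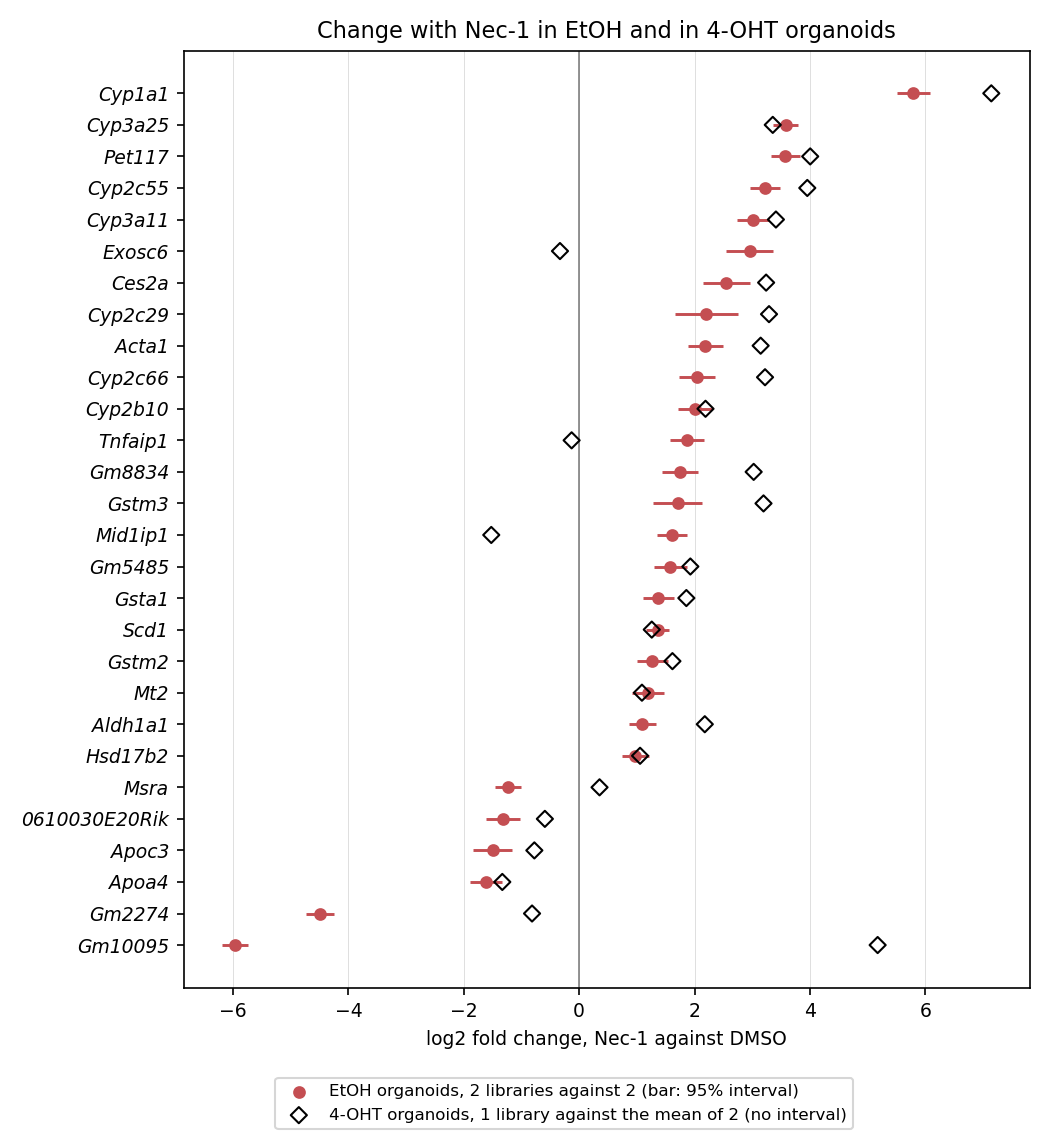
Log2 fold change with Nec-1 of the 28 genes, which were picked by their EtOH change. Red points are EtOH organoids (with 95% interval, 2 libraries against 2). Open diamonds are organoids labelled 4-OHT (1 library against the mean of 2, no interval). Most pairs lie on the same side of 0, and *Exosc6*, *Mid1ip1*, *Gm2274* and *Gm10095* are the 4 whose interaction had a limma adjusted p under 0.05.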

How the data were processed

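Bulk RNA-seq of 7 organoid libraries was used, of which 4 are compared here. The authors deposited FPKM, 1 value per Ensembl gene and library. The submitters' processing notes name HISAT2 2.1.0, StringTie 1.3.3b and mm10. Relative depths read from the spacing of the lowest FPKM were 1, 1.03, 0.853 and 0.907 for EtOH DMSO 1 and 2 and EtOH Nec-1 1 and 2.

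From the deposited FPKM, log2(FPKM + 1) was fitted with limma 3.58.1 in R 4.3.3, with a mean-variance trend and 1 mean per group over all 7 libraries, which left 3 residual degrees of freedom. The fit was tested on simulated data. Tables and plots used Python 3.11.15, numpy 2.4.6, pandas 2.3.3 and matplotlib 3.10.9. Adjustment was by Benjamini-Hochberg over 11909 genes, with a threshold of 0.05.

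The 42 gene lists hold 754 symbols, of which 753 matched and 570 were tested. Lists and members were chosen with earlier results of these data known. Genes named are *Ripk1*, *Mettl3*, the 20 largest rises and 10 largest falls past the threshold with 4 of 4 pairings in agreement and, in each list, members past the threshold, the 3 most abundant and the 2 largest changes. Promoters are RefSeq's for GRCm38.p6.

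Alternatives were limma without the trend, only the 4 EtOH libraries, pseudocounts of 0.1 and 0.25, and other filters on low values. Median centring, upper quartile scaling, other call rules and the replicate number as a block were tried too. Each library was also left out in turn, except the single 4-OHT Nec-1 library. Scaling without mitochondrial genes, and centring with the 4 EtOH libraries alone, were chosen after seeing the data. Some items are not reported here.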

Additional observations from a re-analysis of the deposited data

Results flagged for a closer look

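By limma's interaction test, 4 named genes had an adjusted p under 0.05 for a difference in the Nec-1 change between EtOH organoids and organoids labelled 4-OHT. The 4-OHT Nec-1 group has 1 library, so its spread is unmeasured and taken to be that of the other groups, and 1 or 2 of the 4 genes passed without any 1 of the EtOH libraries. The change in 4-OHT organoids minus that in EtOH organoids was -3.29 for *Exosc6* (limma adjusted p = 0.0481) and -3.13 for *Mid1ip1* (limma adjusted p = 0.0106) on the log2(FPKM + 1) scale. It was 11.14 for *Gm10095* (limma adjusted p = 1.54e-05) and 3.68 for *Gm2274* (limma adjusted p = 0.00444). For the last 2 genes a group is listed at 0, so these sizes follow from the pseudocount and are no bound. *Exosc6* was under 1 FPKM in EtOH DMSO and in both 4-OHT groups, so its size also depends on the pseudocount. The cause of the 4 differences was not tested.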

How the results depend on the processing

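Of 28 genes past the threshold, 27 passed under each of 3 scalings (median centring, upper quartile, without mitochondrial genes), and 0 turned direction in any alternative. The count was 90 with an unadjusted p and a log2 fold change of at least 1, 87 with only the 4 EtOH libraries, 74 with these libraries centred, 45 with upper quartile scaling and 14 with no filter on low values, where 26034 genes were tested. It was 9 to 85 with 1 library left out. With the replicate number as a block it was 19, without *Cyp2c29*, *Gsta1*, *Gstm2*, *Gstm3*, *Aldh1a1*, *Mt2*, *Msra*, *Hsd17b2* and *0610030E20Rik*. With no filter on low values these and *Ces2a*, *Apoa4*, *Apoc3*, *Gm5485* and *Gm8834* did not pass. *Hsd17b2* also did not pass without the mean-variance trend. The labels do not say whether equal replicate numbers pair the libraries. Across genes, deviations of equally numbered libraries correlated at r = -0.0419, -0.0154 and -0.0178 between groups. With 2 libraries per group these values cannot settle whether the libraries were paired.

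Genes separated by 1 log2 unit numbered 108 and 94 with pseudocounts of 0.1 and 0.25, and 109 to 129 with 1 library left out, where fewer values have to be apart. Named genes whose change differed between organoid types numbered 2 with no filter, 1 with the filter of 1 FPKM in all 4 EtOH libraries (176 of 187 genes tested) and 1 to 19 with 1 library left out.

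Among the 83 genes whose signs were followed across the alternatives, signs turned only for genes far from the threshold. For *Casp8* the log2 fold change was -0.0170 when scaled without mitochondrial genes and -0.0122 to 0.0440 with 1 library left out. The range was -0.0138 to 0.156 for *Ripk1*, -0.0018 to 0.196 for *Nr1i2* and -0.0127 to 0.0975 for *Nr1i3*. The cause of these shifts was not tested. Medians of tuft and immune markers had no value at a mean FPKM of at least 5, since no member passed. Without fragment counts, what depth limits cannot be given.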
